A study of Homo sapiens with 49 samples.

Results

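The regions described here are stretches of the T-47D genome at which RNA polymerase II (RNAPII) was called in every library although no promoter was annotated or marked there. Peaks of the 4 T-47D RNAPII lists were merged into 54590 union regions on chromosomes 1 to 22 and X, of which 12294 held a peak from all 4 lists. Of these, 2078 overlapped no T-47D H3K4me3 peak and had no annotated start site within 250 bp, and they are called constant distal regions below. The regions were thus chosen by the RNAPII and H3K4me3 peak calls and by the distance from start sites, and none of these is a result. For comparison, 9707 regions in all 4 lists overlapped H3K4me3 (constant promoter regions), and 29006 regions fulfilled the same distal rule but were found in only 1 to 3 lists (inconstant distal regions).

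RNAPII transcribes protein-coding genes and most long noncoding RNAs. After initiation it can pause close to the start site, then moves through the gene body, and it often slows again beyond the poly(A) site, where the transcript is cleaved and the polymerase is released. It is also found at enhancers, which are short regulatory elements in introns and between genes that are bound by transcription factors and can be transcribed themselves. H3K4me3 marks active promoters, whereas H3K4me1 is commonly found at enhancers.

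The strongest sites, those with the largest E2 differences and the one with the strongest LSD1 peak carry the descriptions that follow, and a 300-base window of 6 of them is printed here, centred on the mean RNAPII summit, as the plus strand of GRCh37. Capitals mark each match to the 5 motif words searched for, on either strand. The first window is the strongest site in a gene body, in an intron of FARP1 (chr13:99068687-99068986), with a forkhead word. The second lies downstream of the UBTD1 3′ end and in an intron of ANKRD2 (chr10:99334438-99334737), with an AP-1 word and a poly(A) word. Next is the strongest intergenic site (chr7:108456297-108456596), with a poly(A) word. It is followed by the sites with the largest E2 differences, in an intron of GREB1 (chr2:11638705-11639004) and between genes (chr3:58452971-58453270). The last is the site with the strongest LSD1 peak, at the 3′ end of LINC01767 (chr1:56882040-56882339), with a forkhead word.
FARP1 intron: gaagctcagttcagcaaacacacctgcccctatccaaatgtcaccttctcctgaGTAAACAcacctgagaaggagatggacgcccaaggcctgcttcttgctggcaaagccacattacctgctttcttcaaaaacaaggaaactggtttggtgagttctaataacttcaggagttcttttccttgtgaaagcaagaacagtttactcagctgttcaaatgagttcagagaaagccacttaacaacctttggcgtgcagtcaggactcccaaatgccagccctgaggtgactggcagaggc
UBTD1 and ANKRD2: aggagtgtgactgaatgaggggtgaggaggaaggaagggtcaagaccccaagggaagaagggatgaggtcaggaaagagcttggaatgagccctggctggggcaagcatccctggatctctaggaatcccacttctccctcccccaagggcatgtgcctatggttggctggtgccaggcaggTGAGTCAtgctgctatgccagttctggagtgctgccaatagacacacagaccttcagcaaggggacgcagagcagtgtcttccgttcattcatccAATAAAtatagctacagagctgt
Intergenic site on chromosome 7: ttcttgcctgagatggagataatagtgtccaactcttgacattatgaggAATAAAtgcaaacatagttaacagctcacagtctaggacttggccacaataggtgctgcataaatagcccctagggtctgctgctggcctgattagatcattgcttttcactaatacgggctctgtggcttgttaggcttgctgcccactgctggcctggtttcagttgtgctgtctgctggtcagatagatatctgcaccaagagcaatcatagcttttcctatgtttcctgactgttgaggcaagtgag
GREB1 intron: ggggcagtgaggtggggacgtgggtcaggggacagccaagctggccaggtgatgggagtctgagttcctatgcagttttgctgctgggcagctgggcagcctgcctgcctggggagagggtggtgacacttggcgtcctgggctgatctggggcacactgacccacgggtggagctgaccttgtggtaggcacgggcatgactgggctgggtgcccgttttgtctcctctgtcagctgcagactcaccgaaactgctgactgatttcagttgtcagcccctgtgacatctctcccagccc
Intergenic site on chromosome 3: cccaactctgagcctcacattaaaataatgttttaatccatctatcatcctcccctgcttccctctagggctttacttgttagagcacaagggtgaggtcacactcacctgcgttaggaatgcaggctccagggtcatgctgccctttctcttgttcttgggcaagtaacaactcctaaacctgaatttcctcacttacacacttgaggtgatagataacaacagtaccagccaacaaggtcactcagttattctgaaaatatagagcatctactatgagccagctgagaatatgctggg
LINC01767: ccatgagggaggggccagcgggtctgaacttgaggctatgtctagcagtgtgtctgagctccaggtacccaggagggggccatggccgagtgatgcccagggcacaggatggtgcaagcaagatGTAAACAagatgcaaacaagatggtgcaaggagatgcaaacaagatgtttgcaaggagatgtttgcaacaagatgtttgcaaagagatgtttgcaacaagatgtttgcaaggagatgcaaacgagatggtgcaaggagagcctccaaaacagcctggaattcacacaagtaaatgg

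T-47D is an estrogen receptor positive line from a human ductal breast carcinoma, and all results come from this single line. The cells were kept without hormones and then given estradiol (E2, 10 nM) or the vehicle DMSO, for 1 h before ChIP-seq of proteins and for 8 h before ChIP-seq of histone marks. RNAPII was precipitated with an antibody to its C-terminal repeat in 2 DMSO and 2 E2 libraries. c-JUN, LSD1, RARA, TAF1, c-MYC, MAX, H3K4me1, H3K4me3 and H3K27me3 had 1 DMSO and 1 E2 library each, and SIN3A had 1 library from hormone-stripped and 1 from full medium, so none of these lists has a replicate. Nothing in the labels says that the replicates came from separate cultures. The values are peak fold enrichments over input, and since the lists hold no read counts the sequencing depth is unknown.

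The label of the line was checked at start sites. All 8 luminal epithelial markers had RNAPII in all 4 lists and H3K4me3, against 1 of 6 basal markers (ACTA2) for RNAPII and 0 of 12 lymphoid markers. The RNAPII lists were unequal, with 39368 and 21287 peaks for DMSO and 46280 and 23431 for E2. The H3K27me3 list from DMSO went against its label, because 4926 of its 6301 regions (78.2%) lay at constant promoter regions. The E2 list of H3K27me3 held 99 regions, the SIN3A list from stripped medium 70 and the DMSO list of LSD1 37. All of these are too short to read an absence from.

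The constant distal regions were spread over introns, gene ends and intergenic DNA. A gene end was taken as 1000 bp upstream to 5000 bp downstream of the 3′ end of a protein-coding or lncRNA gene and was assigned first. By this order 935 regions were in gene bodies (45.0%, exact 95% interval 42.8 to 47.2%), 730 at gene ends (35.1%, 33.1 to 37.2%) and 413 were intergenic (19.9%, 18.2 to 21.7%). Intervals here cover counting error only. The intergenic share was 12.6% in the inconstant distal regions and 2.96% in the constant promoter regions. The split depends on the order of assignment. With gene bodies assigned before gene ends the gene-end share was 14.0%, and with protein-coding genes alone the intergenic share was 32.5%.

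**Figure D1:**
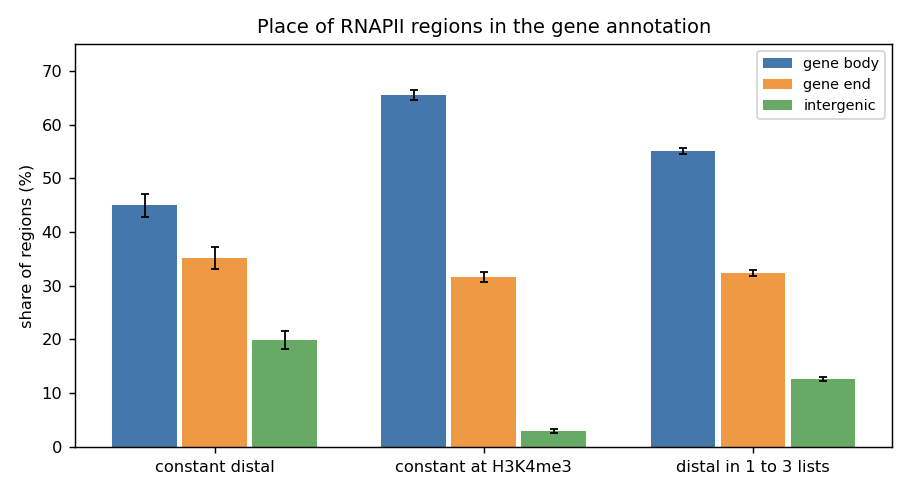
Share of RNAPII regions (%, y axis) in gene bodies, at gene ends and between genes, for the constant distal regions, the constant promoter regions and the inconstant distal regions. Bars start at 0 and whiskers are exact 95% binomial intervals; the intergenic share of the constant distal regions was 19.9%, against 2.96% at promoters.

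The median width was 1062 bp at gene ends, 641 bp in gene bodies and 541 bp between genes, beside 1108 bp for constant promoter regions and 287 bp for inconstant distal regions. The summits of all 4 libraries fell within 200 bp of each other in 77.0% of intergenic regions, 65.9% of gene-body regions and 42.1% of gene-end regions. Summits cannot lie further apart than their region is wide, so this order partly repeats that of the widths. Intergenic regions were thus narrow, whereas 19.2% of gene-end regions were wider than 2000 bp. The median distance to a start site was 15455 bp for intergenic, 7021 bp for gene-body and 3256.5 bp for gene-end regions. H3K4me3 was 17044.5 bp away at the median, and 159 regions (7.65%) had it within 1000 bp.

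Fold enrichment was similar across the 3 classes within a library. In gene bodies the medians were 12.1 and 10.9 for DMSO replicates 1 and 2 and 15.8 and 10.8 for E2 replicates 1 and 2. At gene ends they were 16.0, 10.0, 16.6 and 9.98 in the same order, and between genes 12.2, 11.1, 16.0 and 11.1. Both first replicates were above both second replicates in every class. Constant promoter regions were at 56.8, 13.0, 27.7 and 16.1, which is 4.34 times the median of all constant distal regions in DMSO replicate 1 but 1.22 times in DMSO replicate 2. Across the 2078 regions the log2 values correlated more between libraries with the same replicate number (Pearson r = 0.605 for the first and 0.684 for the second replicates) than between DMSO replicates (r = 0.168) or E2 replicates (r = 0.392). These correlations are across regions of the same libraries and describe them only.

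**Figure D2:**
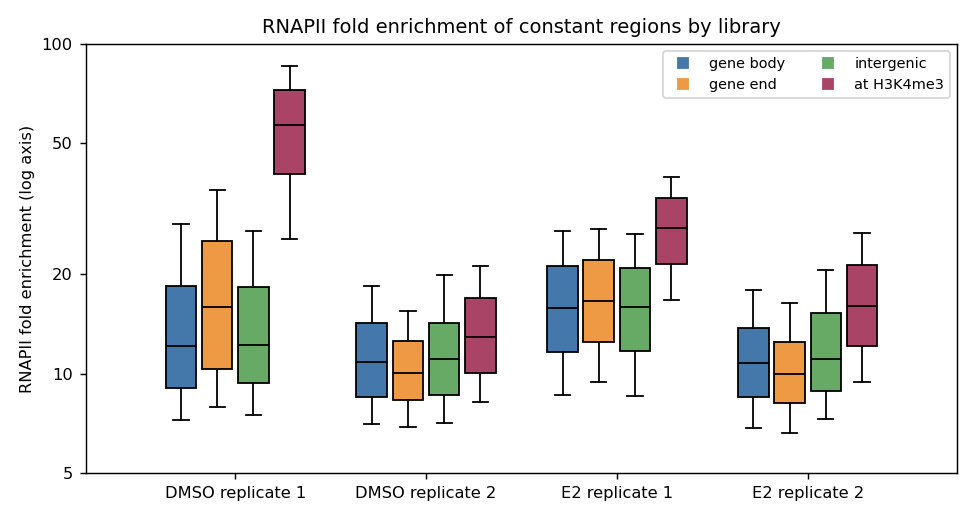
RNAPII fold enrichment (log axis) in each of the 4 libraries for the constant distal regions by place and for the constant promoter regions. Lines are medians, boxes quartiles and whiskers the 10th and 90th percentiles. Promoter regions reached a median of 56.8 in DMSO replicate 1 and 13.0 in DMSO replicate 2, while the distal classes stayed between 9.98 and 16.6.

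At gene ends the median RNAPII summit was 1117 bp beyond the 3′ end, in a window that itself reached further downstream than upstream, and the middle of the distribution ran from 307 to 2434.5 bp (quartiles). The first kilobase downstream held 25.2% of the 730 regions and the second 25.1%, against 14.0% in the last kilobase of the gene. The inconstant distal regions at gene ends had 21.3% and 18.9% in those downstream bins and 18.4% in the last kilobase. Protein-coding 3′ ends accounted for 613 of the regions (84.0%).

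**Figure D3:**
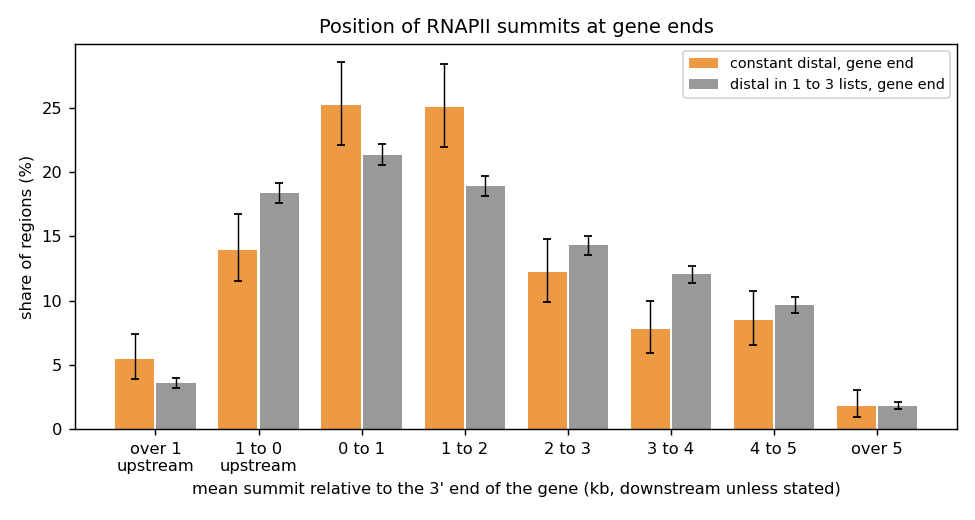
Position of the mean RNAPII summit relative to the 3′ end of the gene (x axis, bins of distance, upstream to downstream) as the share of gene-end regions (%, y axis), for constant and inconstant distal regions, with exact 95% intervals as whiskers. Of the constant distal regions 25.2% were in the first and 25.1% in the second kilobase downstream.

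The strongest gene-end regions, ranked by the lowest of the 4 values, belonged to genes of varied function. At TMSB4X, which encodes the actin-binding peptide thymosin beta-4, fold enrichment was 40.3 and 40.9 in DMSO and 50.4 and 33.0 in E2 (chrX:12995323-12997670), 1075 bp downstream of the end. SLC40A1, the iron exporter ferroportin, had 27.02 and 38.6 in DMSO and 43.5 and 33.1 in E2 (chr2:190423673-190425231). At EIF4A2, a helicase of translation initiation, the values were 23.8 and 30.4, and 31.3 and 30.7 (chr3:186507525-186508947). Values of the DMSO and E2 libraries overlapped at TMSB4X and SLC40A1. The window downstream of UBTD1 printed above had 56.4 and 31.6 in DMSO and 40.3 and 33.1 in E2 (chr10:99334243-99335278), and its summit lay 3625 bp beyond the UBTD1 end, within ANKRD2, so that it cannot be given to a single gene. BACH1, an antioxidant-response repressor, had an intronic region with 21.2 and 28.0, and 32.7 and 27.3 (chr21:30750979-30751641), and it counted as a gene end only through the lncRNA BACH1-IT2.

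Regions in gene bodies were mostly intronic, but neither other regions nor the intron share of genes was counted beside them. Start sites and the last kilobase of genes had already been taken out by the rule and the gene-end class. The summit of 846 of 935 gene-body regions lay in an intron (90.5%), of 42 in a UTR and of 23 in a coding exon. The protein-coding genes around them were long, with a median of 122 kb over the 486 genes, each counted once, against 27.3 kb for all protein-coding genes, and a long gene offers more room to hold a region. Along these genes the summits were spread, with 15.03% in the first and 24.2% in the last of 5 equal bins from start to end. The strongest was the FARP1 site (58.2 and 33.4 in DMSO, 30.4 and 31.8 in E2; chr13:99068479-99069308). ITPR1, an inositol trisphosphate receptor of the endoplasmic reticulum, had 31.4 and 34.4 in DMSO and 28.5 and 33.7 in E2 (chr3:4728784-4729628). Both regions were close to H3K4me3, at 256 bp and 203 bp. C4orf19 had 29.9 and 31.6, and 42.7 and 30.9 (chr4:37472010-37474765). A site shared by DELEC1 and TNFSF8, the CD30 ligand, had 32.4 and 28.8, and 36.8 and 28.2 (chr9:117670198-117670891), 101739 bp from the nearest H3K4me3 peak. The lncRNA LINC01208 had 24.9 and 31.0, and 25.4 and 28.0 (chr3:176573630-176574393).

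Few genes held many regions. Of 20090 protein-coding genes 1272 (6.33%) had a constant distal region in the body or at the end, and of the 1653 genes of both kinds with any, 1351 held 1 (81.7%). TRPS1, a GATA-type repressor expressed in luminal breast cells, held 46, PRLR, the prolactin receptor, 39, and SAMD4A, an RNA-binding repressor of translation, 24. AOPEP, an aminopeptidase, followed with 14 and C4orf19 with 10. With regions joined where the gap was at most 10 kb, 38 of those at PRLR formed a single cluster over 146.9 kb, and TRPS1 had clusters of 19, 14 and 12. The 14 clusters of 5 or more held 149 regions in all, whereas 1456 of 1679 clusters were a single region. The other genes among the 15 with most regions held 5 to 9 each and included the progesterone receptor gene PGR with 6. The longest region covered 20012 bp of LURAP1L and its antisense lncRNA (17.2 and 29.7 in DMSO, 22.4 and 27.7 in E2; chr9:12786638-12806649). A start site with constant RNAPII was found for 72.6% of the protein-coding genes with a region and for 46.9% of all.

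Between genes, 260 of 413 regions (63.0%) lay upstream of the nearest start site, a share not counted for other regions. Since gene bodies and gene ends were assigned first, less room downstream of start sites was left to intergenic regions. The strongest, on chromosome 7, was 67564 bp from the start of LINC02903 and overlapped c-JUN, LSD1 and RARA peaks (39.3 and 30.5 in DMSO, 43.3 and 27.3 in E2; chr7:108456097-108457080). A region 5137 bp from FHL2, a LIM-domain coactivator, had 26.9 and 30.1, and 27.1 and 33.7 (chr2:106060107-106061060). Another, 9010 bp from OSBPL9, had 21.1 and 30.1, and 31.1 and 29.8 (chr1:52033241-52033841) and overlapped none of the other lists. The DMSO and E2 values overlapped at all 3 sites.

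Named gene groups were counted against the 6.33% of protein-coding genes with a region, a share that takes no account of gene length or expression. Of 18 luminal breast transcription factors 10 had at least 1 region, 63 regions in all, most of them in TRPS1. The others included EHF, ESR1, GATA3, GRHL2, PGR, SPDEF, TFAP2A and XBP1. GATA3, which directs luminal differentiation, had one at its end (54.5 and 34.8 in DMSO, 28.8 and 17.1 in E2; chr10:8115014-8120285). Both DMSO values there were above both E2 values as deposited, but not after the centring used for the E2 comparison. The estrogen receptor gene ESR1 had an intronic region (29.6 and 10.3, and 28.9 and 13.2; chr6:152222149-152222724). Of 32 estrogen-induced genes 7 had regions: CA12, GREB1, PGR, RARA, RERG, STC2 and XBP1. Cytoskeletal genes had 10 of 16, with MYL12B, a myosin light chain, at 28.4 and 15.4, and 30.3 and 14.1. Translation factors had 9 of 18, with EIF1 at 18.7 and 18.4, and 27.7 and 21.3, but 5 once start sites within 1000 bp were excluded. Splicing factors had 8 of 19, listed keratins 4 of 8 and immediate early genes 4 of 20, among them the RNA-binding ZFP36L1 (29.2 and 22.4, and 28.2 and 19.2). Of the keratins, KRT7 and KRT86 shared a region that lay beyond the KRT7 end. Nuclear lncRNAs had 4 of 11, against 2.05% of all lncRNA genes. Without regions that had a start site within 1000 bp, the listed keratins and nuclear lncRNAs had 2 each. Of the markers used for the label check, 3 of 8 luminal and 1 of 6 basal genes (KRT14) had regions. Transcription elongation factors had 3 of 15, glycolysis 2 of 12, endoplasmic reticulum chaperones 2 of 13 and heat shock proteins 1 of 11. The 15 poly(A) site factors, 17 replication-dependent histones, 12 liver genes and 12 lymphoid genes had none. Without E2 replicate 2 the counts were 4 for glycolysis, 3 for heat shock proteins and 2 for histones, and without DMSO replicate 2 they were 2 for heat shock proteins, 2 for poly(A) site factors and 12 for estrogen-induced genes. The 1 of 12 neuronal genes was GRIN1, whose region lay 1462 bp beyond the end of ANAPC2. The neuronal count was 2 without DMSO replicate 1 or E2 replicate 2, and the basal count was 2 without E2 replicate 1.

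c-JUN, the AP-1 subunit, was the factor most often listed at these regions, but its lists were also the longest compared. They held 28702 peaks in DMSO and 24883 in E2, and the longest of the others, H3K4me1 in DMSO, held 6406. Its DMSO list overlapped 1117 of them (53.8%, 51.6 to 55.9%, against 41.5% of all union regions) and its E2 list 520 (25.02%, 23.2 to 26.9%, against 37.9%). At constant promoter regions both lists were near complete, at 97.5% and 93.0%, and at inconstant distal regions they reached 19.1% and 14.5%. Both c-JUN lists overlapped 480 regions (23.1%, against 92.5% of constant promoter regions), the DMSO list alone 637 (30.7%) and the E2 list alone 40 (1.92%). This split was not counted over all union regions. Each list is 1 library without a replicate, so no change of c-JUN with E2 is read from it. By place, the DMSO list overlapped 64.7% of gene-end, 48.4% of gene-body and 46.5% of intergenic regions. RNAPII in the first replicates moved with this overlap, with medians of 19.6 at regions with c-JUN in DMSO and 10.1 without in DMSO replicate 1, and of 18.9 and 13.5 in E2 replicate 1. The second replicates had 9.98 and 11.3 in DMSO and 10.4 and 10.7 in E2. The part of these libraries in the overlap was not tested. The AP-1 word was found in 14.1% of windows with the DMSO c-JUN peak and in 16.9% without.

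LSD1, a histone demethylase that removes methyl groups from H3K4me1 and H3K4me2, was listed at 195 regions in E2 (9.38%, 8.16 to 10.7%), against 0.775% of all union regions. The share was 0.886% at constant promoter regions and 0.341% at inconstant distal regions. Read from the other side, 197 of the 441 LSD1 regions in E2 (44.7%, 39.97 to 49.4%) lay at constant distal regions, and 87 (19.7%) at constant promoter regions. LSD1 was more frequent between genes (15.5%) and in gene bodies (11.98%) than at gene ends (2.60%). Its share increased with RNAPII, with 4.99%, 6.18%, 7.68% and 18.7% in 4 groups of near equal size by the lowest of the 4 values. Other lists also rose from the first to the last group. c-JUN went from 48.2% to 61.6% in DMSO and from 20.3% to 28.6% in E2. In DMSO, RARA went from 0.768% to 5.02% and H3K27me3 from 5.95% to 12.4%, while H3K4me1 was at 6.72% and 6.76%. Medians of RNAPII at LSD1 regions were 14.3 and 13.4 in DMSO and 19.0 and 15.2 in E2, against 13.0 and 10.3, and 15.9 and 10.2 at the others. The strongest LSD1 peaks, with a fold enrichment of 15.2 each, were at LINC01767 and LINC01208, followed by MARCHF8 (14.8), AFF3 (14.5) and RAB36 (14.4). The DMSO list overlapped 1 region, against 0.00916% of the union, and its 37 peaks allow no comparison with E2.

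**Figure D4:**
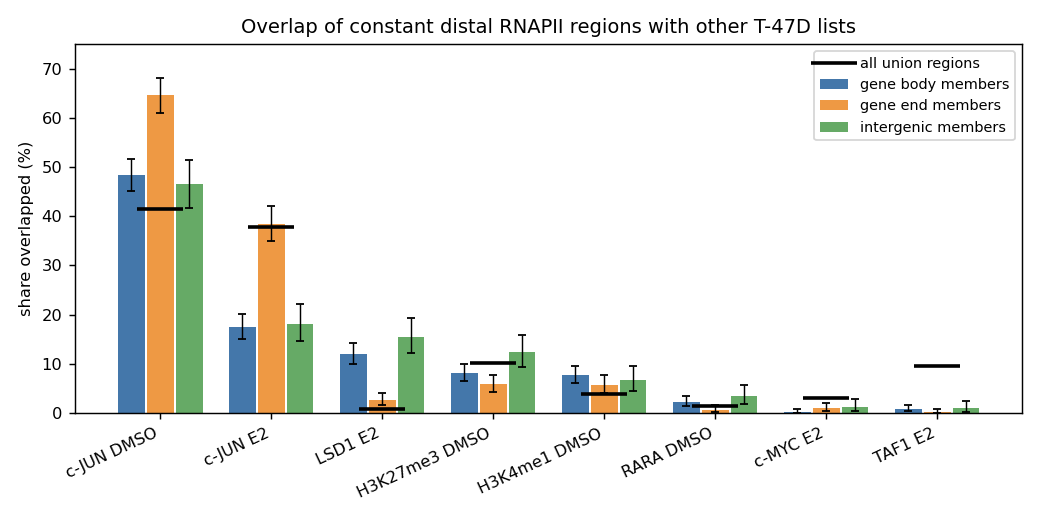
Share of constant distal regions (%, y axis) overlapped by 8 other T-47D lists (x axis), by place, with exact 95% binomial intervals as whiskers and the share of all union regions as a black line. LSD1 in E2 stood at 15.5% between genes and 2.60% at gene ends, against a line at 0.775%, whereas the c-JUN bars were highest at gene ends.

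Factors of promoters were rare. TAF1, a TFIID subunit, was at 5 regions in DMSO (0.241%, against 7.84% of the union) and 13 in E2 (0.626%, against 9.57%). c-MYC was at 3 (0.144%, against 1.04%) and 14 (0.674%, against 3.0%), and its partner MAX at none in DMSO (against 0.278%) and 6 in E2 (0.289%, against 2.65%). The corepressor SIN3A overlapped 1 region in full medium, against 1.09%, and none in stripped medium, against 0.104%. At inconstant distal regions TAF1 was at 0.0069% in DMSO and 0.0138% in E2, and c-MYC at 0.0345% and 0.169%. MAX was there at 0.0345% in DMSO and 0.0414% in E2, and SIN3A at 0.0758% in full and 0.0345% in stripped medium. Several of these lists were short. SIN3A had 70 peaks in stripped and 649 in full medium, MAX 197 in DMSO and c-MYC 592 in DMSO. Few or no overlaps with such lists say little about absence. RARA, the retinoic acid receptor alpha, was at 40 in DMSO (1.92%, against 1.52%) and 30 in E2 (1.44%, against 1.38%), near the union share. It was at 0.031% of inconstant distal regions in either treatment, and at 7.03% and 6.32% of constant promoter regions in DMSO and E2. Of the 195 LSD1 regions 35 (17.9%) held the DMSO peak of RARA. H3K4me1 overlapped 142 regions in DMSO (6.83%, against 3.93%) and 31 in E2 (1.49%, against 1.21%), and counting peaks within 1000 bp brought the DMSO share to 18.9%. H3K27me3 in DMSO overlapped 170 (8.18%, against 10.2%), in the list that goes against its label, and in E2 none. No list of the 9 targets overlapped 804 regions (38.7%), and 1 target alone overlapped 924 (44.5%). Regions with the most targets included introns of CUEDC1 (5; chr17:55975460-55979285) and MIDEAS (5; chr14:74218900-74221445) and a site of PMF1 and SLC25A44 (6; chr1:156186176-156186704).

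Short sequence words differed with place. Words were searched on both strands in 300-base windows, each word counted by itself even where it overlapped another, and a match is no evidence of binding. The AP-1 word (TGANTCA) occurred in 15.4% of constant distal windows, 4.25% at constant promoters, 10.2% of inconstant distal and 8.37% of all union windows. It was found in 19.1% between genes, 18.8% in gene bodies and 8.90% at gene ends. The forkhead word (TGTTTAC) was in 8.81%, against 2.11%, 5.31% and 4.29%, and in 40 of the 195 LSD1 windows (20.5%, 15.1 to 26.9%). The E-box (CACGTG) was in 4.52%, against 9.03%, 7.22% and 7.59%. The poly(A) word (AATAAA) was in 25.1% of constant distal windows, against 5.86% at constant promoters, 17.5% of inconstant distal and 13.4% of all union windows. It was found in 29.2% in gene bodies, 29.1% between genes and 17.5% at gene ends. The estrogen response element GGTCANNNTGACC was in 5 windows (0.241%, against 0.244%). Base composition moved with these shares, since the median GC content was 48.3% in constant distal, 67.0% in promoter and 44.7% in LSD1 windows, and its part in them was not tested.

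E2 against DMSO was compared on log2 fold enrichment centred on each library's median over the 12294 regions in all lists. A region was called stronger where both E2 values lay above both DMSO values and the means were at least 1.5-fold apart. The lists compared are those the rule used, so the counts describe the regions and carry no test. By this rule 140 constant distal regions were stronger with E2 (6.74%, against 2.84% of all regions in 4 lists) and 7 weaker (0.337%, against 1.05%). The counts rested on the DMSO libraries, with 62 stronger and 685 weaker without DMSO replicate 1, and 1682 stronger and 10 weaker without DMSO replicate 2. Leaving out E2 replicate 1 gave 308 and 15, and leaving out E2 replicate 2 gave 328 and 27. The median difference was 0.40 on the log2 scale, 0.05 without centring and -0.09 when centred on the regions themselves, so no direction is given for the regions as a whole.

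A small set was called stronger under all 4 centrings and without each library in turn. It held 23 constant distal regions, of 29 such regions among all 12294. No constant distal region was weaker in this sense, but only 5 of all 12294 were, so this absence says little. The settings included values without centring, where constant promoter regions had medians of 56.8 and 13.0 in DMSO against 27.7 and 16.1 in E2. On that scale promoters could seldom have both E2 values above both DMSO values. The distal share of the set is therefore no result. Apart from those reached by the ranking, its genes were named after their values were seen. GREB1, an estrogen-responsive coregulator gene, had 15.4 and 10.0 in DMSO and 41.3 and 39.7 in E2 (chr2:11638412-11639193), a log2 difference of 2.05. The GREB1 region lay 15945 bp from a start site but only 173 bp from H3K4me3. It overlapped peaks of TAF1, c-JUN, LSD1 and H3K27me3. At the intergenic site on chromosome 3 the values were 9.95 and 10.2, and 44.7 and 29.7 (chr3:58452755-58453343), a difference of 2.20. SFXN2, a mitochondrial transporter, had 5.21 and 6.65, and 19.8 and 18.6, and the lncRNA LINC00160 had 6.82 and 5.84, and 22.3 and 17.2. Of these sites GREB1 and the intergenic one reached the highest E2 values.

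Several of the 23 lay in genes of the estrogen-induced list. PGR held 2 of them, at 7.91 and 6.84 in DMSO against 22.8 and 11.7 in E2 (chr11:100936334-100937572), and at 9.68 and 8.38 against 26.8 and 16.6 (chr11:100988457-100990065). STC2, a secreted stanniocalcin, held 2 neighbouring regions, at 26.01 and 13.6 against 50.02 and 28.5 (chr5:172740101-172743980), and at 17.2 and 7.26 against 28.1 and 23.5 (chr5:172744036-172747849). XBP1, a transcription factor of the unfolded protein response, had 8.90 and 6.42 against 19.1 and 18.5 at its end, which neighbours that of CCDC117 (chr22:29188081-29189662). RARA shared an end region with GJD3, at 7.91 and 5.23 against 20.3 and 11.6 (chr17:38514705-38515240). The remaining regions were in KDM4B, ITPR1, GPR132, CUEDC1, ZBTB40, BMPER, RPS10 and a lncRNA on chromosome 17, and 5 further ones were intergenic. DMSO c-JUN peaks overlapped 20 of the 23, E2 c-JUN peaks 6 and E2 LSD1 peaks 9, beside 53.8%, 25.02% and 9.38% of all constant distal regions. DIRC3 was among the 5 largest differences (5.32 and 11.5 against 24.1 and 21.9) but was lost under 1 or more settings.

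**Figure D5:**
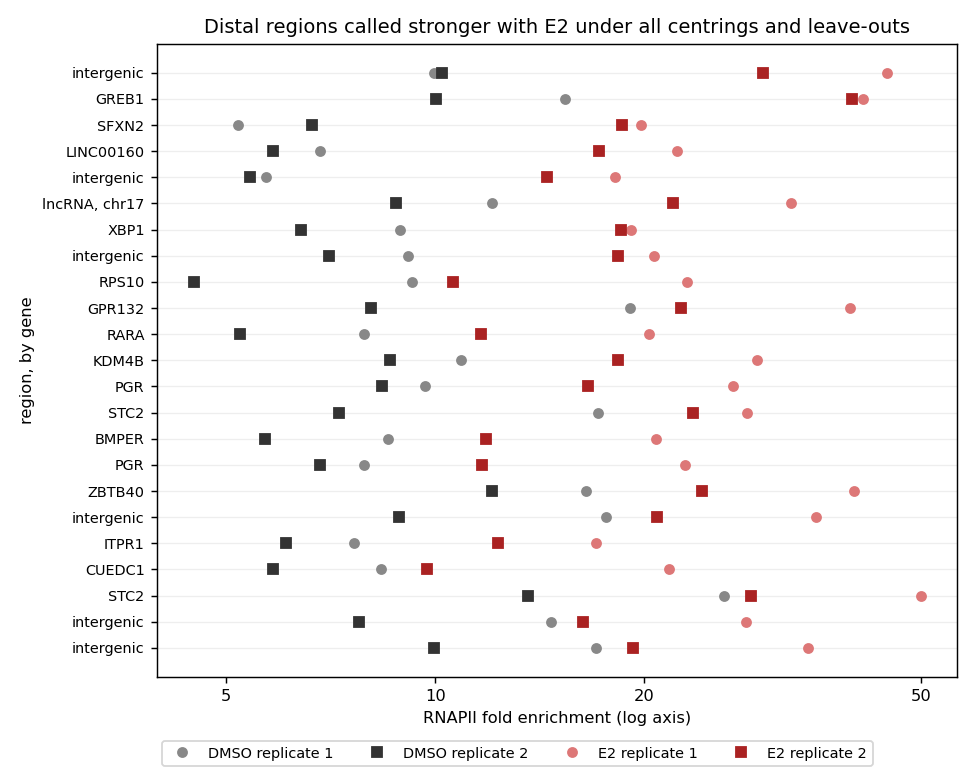
RNAPII fold enrichment (log axis) of the 23 constant distal regions called stronger with E2 under all 4 centrings and without each library in turn, 1 row per region with its gene. Each point is 1 library; in every row both E2 points lie to the right of both DMSO points, as at GREB1 with 41.3 and 39.7 against 15.4 and 10.0.

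The 5 weaker regions with the largest differences were at ends or in introns of KLHL17 and PLEKHN1, ACP4, WFIKKN1 and METTL26, QPRT, and CFL1 and SNX32. KLHL17 and PLEKHN1 shared a region at 21.3 and 13.8 in DMSO and 10.0 and 5.69 in E2 (chr1:902811-904426), a log2 difference of -0.84. At CFL1, which encodes the actin-severing protein cofilin, it was 37.5 and 11.5 against 10.3 and 9.91. None of them was weaker under all settings.

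Values at the edges of the rule were as follows. The closest regions to a start site that were kept lay 262 bp from SLC25A25-AS1 (12.6 and 7.55 in DMSO, 7.35 and 6.75 in E2; chr9:130881234-130881876) and 264 bp from a start (16.5 and 27.7, and 14.8 and 25.8; chr5:32887368-32887987). The nearest regions left out lay 233 bp from RDH5 (20.01 and 10.2, and 18.5 and 8.68) and 222 bp from LIPE-AS1 (31.7 and 8.30, and 20.8 and 8.01). A further 2407 distal regions were in 3 of the 4 lists, most often missing from DMSO replicate 2 (849). Among the 2078, 17 had a −log10 p-value under 12 in at least 1 library. With a fold enrichment of at least 10 required in each library 644 regions remained, and 893 where each list covered at least 50% of the region.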

How the data were processed

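ChIP-seq libraries of T-47D cells were analysed from peak lists called per library. Per the labels and the submitters' processing notes, the authors aligned reads with Bowtie 1.1.2 to hg19 and called peaks against input with MACS2 2.1.0.20140616. The values used are the fold enrichment of each peak, a ratio deposited by the authors, and its deposited −log10 p-value. Of 49 samples 45 had a list, and 4 input libraries were not analysed here.

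RNAPII peaks were merged where they overlapped by at least 1 bp, and genes were taken from GENCODE release 44 on GRCh37. The level of a region in a library was its highest peak fold enrichment. Sequences were read from the GRCh37 genome. Shares have exact Clopper-Pearson 95% intervals, and no test was run, since the RNAPII lists chose the regions and the other lists have no replicates. The regions, gene lists and comparisons were chosen with earlier results of these data known. Regions named in the text were the 5 strongest of each place class by the lowest of 4 values, the 5 most changed with E2 in each direction, the 5 longest, the 5 with most targets, those with the strongest LSD1 peaks, the 15 genes with most regions and up to 4 genes of each list, of which a selection is printed. Alternatives for the overlap, thresholds, annotation, centring and left-out libraries were tried. The scripts were tested on simulated data. Python 3.11.15, numpy 2.4.6, scipy 1.17.1, pandas 2.3.3, pysam 0.24.0 and matplotlib 3.10.9 were used.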

Additional observations from a re-analysis of the deposited data

How the results depend on the processing

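The number of constant distal regions was 893 with 50% coverage required of each list, 644 with fold enrichment of at least 10, and 2543 to 2989 without 1 RNAPII library. The shares of gene ends and intergenic regions were 30.2% and 24.9% with 50% coverage and 33.1% and 22.4% with fold enrichment of at least 10. With gene ends reaching only 2000 bp downstream, gene bodies held 51.8%, gene ends 23.97% and intergenic DNA 24.2%, and with protein-coding genes alone 37.2%, 30.3% and 32.5%. With gene bodies first, bodies held 66.1% and ends 14.0%. Without 1 library the shares ran from 44.5% to 47.97% for gene bodies, 30.8% to 37.5% for gene ends and 18.1% to 21.3% for intergenic DNA.

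For overlaps, the c-JUN shares were 59.0% in DMSO and 29.8% in E2 within 1000 bp, and 34.7% and 18.4% for peaks of fold enrichment at least 10. LSD1 in E2 fell to 1.64% and H3K27me3 to 3.13% at that fold. H3K4me1 in DMSO was 5.10% with overlap of 50%, 18.9% within 1000 bp and 0.241% at the higher fold. Without 1 library the ranges were 45.2% to 58.6% for c-JUN in DMSO, 21.7% to 34.5% for c-JUN in E2, 7.26% to 8.38% for LSD1 in E2, 4.61% to 8.03% for H3K4me1 and 6.44% to 9.10% for H3K27me3.

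For E2, 74 regions were stronger (3.56%, against 1.03% of all regions in 4 lists) and 0 weaker (against 0.0651%) at a log2 difference of at least 1. Without centring 152 were stronger (7.31%, against 1.75%), of which 59 were among the 140, and 25 weaker (1.20%, against 0.960%). Centring on the regions themselves gave 92 stronger (4.43%, against 1.07%), 64 of them among the 140, and 90 weaker (4.33%, against 5.07%). It turned the median difference to -0.0902 on the log2 scale. This centring and the alternatives for levels, gene lists and motifs were chosen after seeing the data. Leaving out a library gave 62 to 1682 stronger (2.98% to 80.9%, against 5.17% to 24.9%). It gave 10 to 685 weaker (0.481% to 33.0%, against 2.45% to 11.9%). The replicate numbers are shared by DMSO and E2 but no label says what a number marks. The replicate block asked only that each E2 value lie above the DMSO value of the same number, so it keeps all 140 by construction. It gave 264 stronger (12.7%, against 4.25% of all regions in 4 lists) and 8 weaker (0.385%, against 1.18%). The deviations of same-numbered libraries correlated at 0.539 over the regions. Without 1 library 7 to 12 estrogen-induced genes held a region and the forkhead word was in 7.19% to 11.3% of windows. Excluding start sites within 1000 bp left 5 translation factors. The causes of these shifts were not tested, and depth could not be set against them because the lists state none.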
